A study of Mus musculus with 36 samples.

Results

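Leukaemia inhibitory factor (LIF) is the cytokine that keeps mouse embryonic stem cells (mESCs) self-renewing in serum. The comparison described here set the 3 libraries of mESCs grown for 48 h on stiff hydrogel in serum + LIF against the 3 libraries grown for 48 h on the same stiff hydrogel in serum alone, with no PD03 in either group. These 6 libraries are part of a series of 36, and 17702 of the 49671 genes in the count table had enough counts to be tested. The cells carried the label 129m wt, a wild-type line, and stood on StemBond hydrogel, a polyacrylamide gel to which matrix protein is covalently tethered, here in its stiff form. Each library was bulk RNA from a culture, and the labels do not say whether the 3 libraries of a group came from separate cultures. The p-values therefore measure only the spread between libraries within groups, estimated from all 36 libraries fitted together. Because the RNA is from whole cultures, fewer cells of a type and less RNA per cell cannot be told apart. Libraries 1, 2 and 3 of a group are named in the order of the table, and a shared number does not tie libraries of different groups to each other.

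LIF binds a receptor made of LIFR and gp130 (Il6st), which activates JAK kinases and the transcription factor STAT3. STAT3 turns on its own feedback inhibitor, Socs3, and genes of the naive pluripotency network such as Klf4 and Tfcp2l1. When LIF is withdrawn, mESCs drift from the naive state towards the formative state of the early post-implantation epiblast, marked by Otx2, Pou3f1, Fgf5 and the de novo DNA methyltransferases. PD03 blocks MEK, the kinase above ERK, whose signal drives that exit.

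The 6 libraries held 13929917 to 26635239 counts each. Markers of embryonic stem cells were high in every library of both groups, for example Pou5f1 at 561 to 612 CPM (counts scaled to a common library size) and Sall4 at 952 to 1077 CPM. Library 2 of the serum group stood apart. Only 0.574% of its counts came from mitochondrially encoded genes, against 1.11% to 1.34% in the other 5 libraries, and it had the fewest genes with a count, 20970 against 22169 to 24251. Its counts differed from those of serum libraries 1 and 3 with a chi-square per gene of 13.4 and 10.3, where the other pairs within a group gave 3.20 to 4.66. On the first principal component of the 6 libraries, which took 45.6% of the variance of 7486 genes, it lay at 12.1 and the others between -4.68 and 0.35. Long non-coding RNAs picked out after their values were seen were low in it, Malat1 at 1047 CPM against 1703 and 1742 in serum libraries 1 and 3, and Kcnq1ot1 at 91.4 CPM against 267 and 225. Results are therefore also given without it. The sample descriptions carry 1 of 3 library-pool identifiers: the 3 serum libraries and 2 of the serum + LIF libraries share the second, and 1 serum + LIF library has the first. Which column of the table that library fills is not given, so the fit was repeated with each of the 3 in its place.

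Adding LIF on stiff hydrogel changed 249 genes at an adjusted p below 0.05, 126 higher and 123 lower, which is 1.41% of the genes tested (0.712% higher and 0.695% lower). The changes were small. The median size was 0.36 on the log2 scale for genes that rose and 0.35 for genes that fell, and only 5 and 2 genes passed 2-fold. In all 249 the 3 serum + LIF libraries lay wholly above or wholly below the 3 serum libraries, a separation also seen upwards in 7.87% and downwards in 9.03% of all genes tested. Fitted from the 6 libraries alone, the count was 182, of which 160 were among the 249. Without serum library 2 the count was 138, of which 130 were among the 249. It was 118 without serum + LIF library 1 and 142 without serum + LIF library 2; 70 genes, 36 higher and 34 lower, were called in all 6 fits that each left out 1 library. With a pool term the count was 119, 136 or 195, depending on which serum + LIF library was taken as the one from the first pool. No other group in that fit was split between pools, so the term rested on that library and amounted to leaving it out. Leaving out serum + LIF library 3 gave 202.

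**Figure D1:**
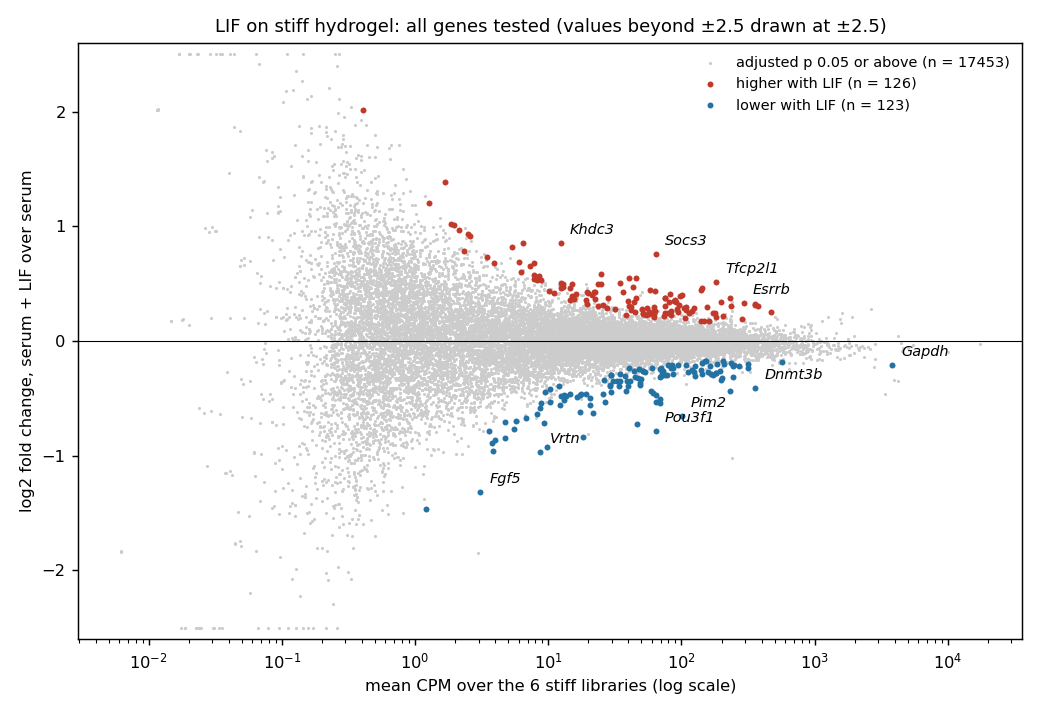
Log2 fold change of serum + LIF over serum on stiff hydrogel (vertical axis) against the mean CPM of the 6 libraries (horizontal log axis) for the 17702 genes tested. Red and blue points are the 126 genes higher and the 123 genes lower with LIF, and most of them lie within 1 log2 unit of 0.

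Socs3, the STAT3-induced inhibitor of JAK signalling, gave the smallest p-value of the comparison. It lies at chr11:117966079-117970047 of GRCm38, on the minus strand. Socs3 stood at 78.6, 83.1 and 81.9 CPM in the serum + LIF libraries and at 43.1, 46.3 and 55.6 CPM in the serum libraries. The lowest library with LIF was well above the highest without it, and the log2 fold change was 0.76 ± 0.07 (SE; adjusted p = 1.35e-09). Without serum library 2 the log2 fold change was 0.73 (adjusted p = 5.87e-08). Its transcript was therefore also well detected in serum without added LIF.

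The sequences listed here come from the RefSeq promoter table of build GRCm38.p6 and are shown because STAT dimers recognise the palindrome TTCNNNGAA, which is set in capitals. The stretches run 5′ to 3′ on the strand of the gene, upstream of a RefSeq transcript start of Socs3 (chr11:117969462-117969570, minus strand), of Esrrb, a naive factor that rose (chr12:86360889-86360997, plus strand), and of Otx2, a formative factor that fell (chr14:48665164-48665272, minus strand). For Socs3 and Otx2 that start is not the 5′ end of the Ensembl gene used for counting, and both stretches lie inside the Ensembl gene, which for Otx2 spans chr14:48657677-48673819.
Socs3: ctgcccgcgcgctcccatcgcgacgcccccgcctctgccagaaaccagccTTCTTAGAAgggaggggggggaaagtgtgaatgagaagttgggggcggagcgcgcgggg
Esrrb: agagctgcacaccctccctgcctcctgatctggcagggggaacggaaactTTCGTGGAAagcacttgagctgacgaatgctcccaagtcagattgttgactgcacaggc
Otx2: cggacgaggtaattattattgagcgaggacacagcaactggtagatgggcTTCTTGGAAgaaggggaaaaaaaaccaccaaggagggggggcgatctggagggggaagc
Across the promoter table, which holds 250 bases before and 50 after each start, TTCNNNGAA on either strand occurred in 8.30% of all 32851 promoters and in 6.59% of the 15284 promoters of tested genes. It occurred in 6 of the 126 promoters (4.76%) of the 99 matched genes that rose and in 5 of the 131 promoters (3.82%) of the 95 matched genes that fell. The stricter form TTCCNGGAA, every match of which is also a match of TTCNNNGAA, was found in 1.17% of promoters of tested genes, in 1 promoter of a gene that rose (Crebrf) and in none of a gene that fell. These matches describe the letters in the window and are not binding sites.

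The gene lists, apart from those taken from the study, were chosen with earlier results of these data known. Their counts are therefore not independent evidence. Each list's counts stand beside 0.712% higher and 0.695% lower over all genes tested. Among the 14 genes of the LIF receptor and JAK-STAT pathway, 2 rose and none fell. Stat3 itself stood at 108, 105 and 109 CPM with LIF and at 80.9, 92.8 and 85.2 CPM without (log2 fold change 0.32 ± 0.06, adjusted p = 0.000427). Il6st, the signalling subunit of the receptor, stood at 117, 120 and 119 CPM with LIF and at 98.0, 96.4 and 100 CPM without (0.27 ± 0.05, adjusted p = 0.000449). In both genes the groups were separate. The ligand-binding subunit Lifr missed the threshold, with a log2 fold change of 0.16 ± 0.04 (adjusted p = 0.0624); it passed in 1 of 13 alternative fits. The listed kinase genes Jak1 (0.09 ± 0.06) and Tyk2 (-0.04 ± 0.09), and the phosphatase genes Ptpn11 (-0.09 ± 0.06) and Ptpn2 (0.00 ± 0.06), were not called. The median over the 14 genes was 0.10 against 0.00 over all genes tested. Jak3, a JAK kinase gene outside the list, rose (0.49 ± 0.09, adjusted p = 0.000249). Jak3 stood at 27.7, 30.3 and 29.3 CPM with LIF and at 18.8, 19.9 and 23.8 CPM without, and kept its call whichever library was left out.

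Of 20 known STAT3 targets and feedback genes, 6 rose (0.712% of all genes tested did) and none fell, with a median log2 fold change of 0.12. Besides Socs3 and Stat3 these were Tfcp2l1, Klf4, Bcl3 and Junb. Bcl3, an IkB-family co-regulator, stood at 105, 120 and 108 CPM with LIF and at 72.7, 90.5 and 91.1 CPM without (0.40 ± 0.07, adjusted p = 0.000527), a call lost without serum library 1. Junb, an AP-1 subunit, was the least secure of the 6: 23.8, 23.9 and 24.3 CPM with LIF against 15.9, 19.6 and 19.8 CPM without gave 0.40 ± 0.11 (adjusted p = 0.0366), and the call was lost without any single library other than serum library 3 (adjusted p = 0.0511 without serum library 2). Other members of the list did not pass. The kinases Pim1 and Pim3 stood at log2 fold changes of -0.13 ± 0.06 and 0.16 ± 0.07, the SOCS-family members Socs1, Socs2 and Cish at 0.21 ± 0.24, -0.01 ± 0.07 and 0.21 ± 0.16, and Myc at -0.16 ± 0.06. Pim2, a kinase gene left out of this list, fell (-0.65 ± 0.07, adjusted p = 1.90e-09). That none fell therefore holds only for the 20 listed genes. Klf5, at 693 to 737 CPM with LIF and 641 to 758 CPM without, overlapped between the groups.

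Of 16 naive pluripotency factors, 9 rose (0.712% of all genes tested did) and none fell, with a median log2 fold change of 0.29. Tfcp2l1, a transcription factor that links LIF to the naive network, stood at 218, 218 and 207 CPM with LIF and at 143, 151 and 156 CPM without. The 2 groups were far apart relative to their spread, with a log2 fold change of 0.52 ± 0.05 (adjusted p = 1.64e-09). Klf4, a Kruppel-like factor downstream of STAT3, stood at 166, 171 and 156 CPM against 113, 121 and 124 CPM (0.46 ± 0.05, adjusted p = 2.87e-09). Tbx3, a T-box factor, gave 92.7, 93.3 and 95.3 CPM against 69.0, 67.5 and 75.3 CPM (0.41 ± 0.05, adjusted p = 5.20e-07). The 3 libraries with LIF differed among themselves by less than the gap between the groups in each of these genes.

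Esrrb, an orphan nuclear receptor of the same network, stood at 329, 323 and 330 CPM with LIF and at 246, 270 and 263 CPM without (0.33 ± 0.05, adjusted p = 3.38e-06). Nanog, the homeodomain factor, stood at 235, 212 and 219 CPM with LIF and at 174, 168 and 186 CPM without (0.34 ± 0.06, adjusted p = 0.000239). The remaining members that rose were Tet2, a 5-methylcytosine dioxygenase (0.33 ± 0.06), Klf2 (0.30 ± 0.06), Zfp42, also called Rex1 (0.25 ± 0.06), and Prdm14, a repressor of de novo methylation (0.60 ± 0.15). All 9 were called without serum library 2 as well. Leaving out single libraries left 6 to 9 called; Klf2, Zfp42 and Prdm14 were the ones lost in some of these fits. Nr0b1 (0.20 ± 0.06, adjusted p = 0.0846), Tcl1 (0.28 ± 0.10), Nr5a2 (0.14 ± 0.05), Gbx2 (0.08 ± 0.06), Dppa3 (-0.04 ± 0.10), Fgf4 (0.00 ± 0.06) and Klf5 (0.00 ± 0.06) did not pass.

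Of 8 general pluripotency factors, which naive and formative cells share, none passed, and the median was -0.01. Pou5f1 stood at 612, 594 and 582 CPM with LIF and at 562, 606 and 561 CPM without, and Sox2 at 286, 279 and 273 CPM against 276, 285 and 279 CPM. In both genes the ranges overlapped. The largest change of the 8 was in Utf1, at 503, 542 and 500 CPM against 550, 616 and 566 CPM (-0.17 ± 0.05, adjusted p = 0.111); it passed in 2 of 13 alternative fits.

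**Figure D2:**
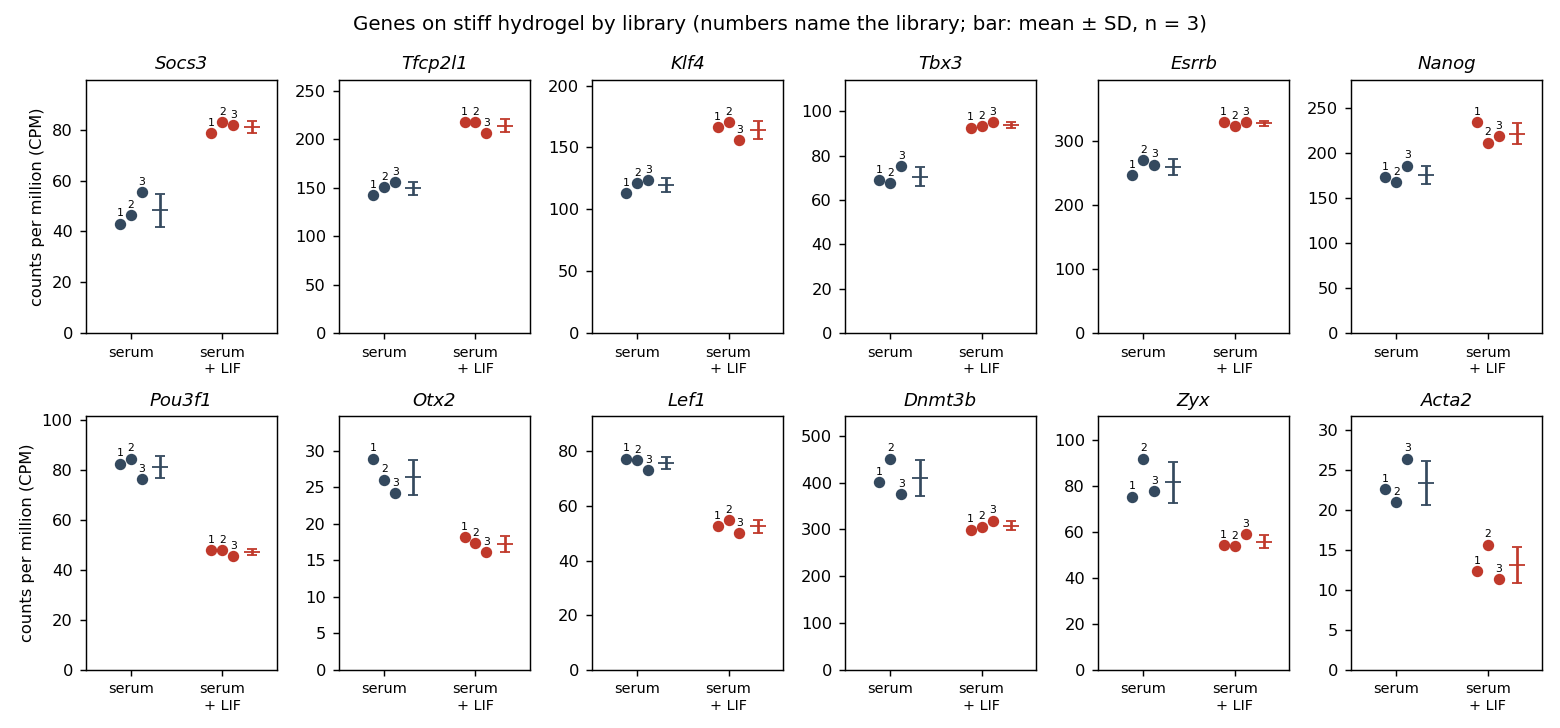
CPM of 12 genes in each library on stiff hydrogel (vertical axes start at 0), serum in dark points and serum + LIF in red, with the mean ± SD of 3 libraries beside the points. Upper row, genes that rose, and lower row, genes that fell; in no panel do the libraries of the media overlap.

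Formative genes fell. Of 11 members, 8 passed and all 8 were lower with LIF, beside 0.695% lower over all genes tested. The list median was -0.41. Pou3f1, a POU-domain factor of the post-implantation epiblast (chr4), stood at 47.9, 48.0 and 45.5 CPM with LIF and at 82.5, 84.5 and 76.2 CPM without (-0.78 ± 0.09, adjusted p = 1.35e-08). Otx2, the factor that directs the exit from the naive state, stood at 18.2, 17.4 and 16.1 CPM with LIF and at 28.9, 26.1 and 24.2 CPM without (-0.63 ± 0.10, adjusted p = 5.07e-05). Neither gene overlapped between the media, and both kept the call whichever library was left out.

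Fgf5, the growth factor used as an epiblast marker, showed the largest fold of the 8 from a low level: 1.07, 2.16 and 2.05 CPM with LIF against 4.15, 4.37 and 4.81 CPM without (-1.32 ± 0.31, adjusted p = 0.0128). Its call was lost in DESeq2 and without serum + LIF library 1, and so also with the pool term that put this library in the first pool. Lef1, a Wnt effector, stood at 52.6, 55.0 and 50.2 CPM against 77.4, 76.9 and 73.2 CPM (-0.53 ± 0.08, adjusted p = 5.53e-05). Zic2 (-0.38 ± 0.07) and Sall2 (-0.48 ± 0.13), both zinc-finger factors, fell as well, the latter with an adjusted p of 0.0365. The call of Sall2 was lost in 7 of 13 alternative fits. It was lost without any single library other than serum + LIF library 3 (adjusted p = 0.142 without serum library 2). Sox3 (-0.11 ± 0.17), Etv4 (0.07 ± 0.08) and Wnt8a (-0.17 ± 0.39) did not pass.

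In the list of 10 genes of DNA methylation and demethylation, 2 fell, 2 rose and 6 did not pass, at a median of -0.02. Dnmt3b, a de novo methyltransferase, stood at 299, 306 and 319 CPM with LIF and at 401, 451 and 375 CPM without (-0.41 ± 0.06, adjusted p = 1.38e-05). Dnmt3a stood at 126, 130 and 130 CPM against 157, 162 and 153 CPM (-0.29 ± 0.05, adjusted p = 0.000896). Tet2 rose from 328, 279 and 337 CPM to 391, 415 and 378 CPM. The other gene that rose was Prdm14, and all 4 were also called without serum library 2. The lists share members, so these calls are not all separate from those above. For example, Dnmt3b is also counted among the formative genes that fell, and Tet2 and Prdm14 among the naive genes that rose. The dioxygenase genes Tet1 (0.19) and Tet3 (-0.14) and the maintenance genes Dnmt1 (0.00 on the log2 scale) and Uhrf1 (-0.02) did not pass.

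Listed genes controlled by SRF and YAP, transcription regulators that respond to actin tension, were lower with LIF. Of 20 members, 10 fell and none rose, beside 0.695% lower over all genes tested. All 20 had a log2 fold change below 0, beside 49.4% of all genes tested, with a median of -0.29. Every member tested was also below 0 under each alternative fit. The members were chosen with earlier results of these data known, so this shared sign is not independent evidence. Zyx, which encodes the focal adhesion protein zyxin, stood at 54.4, 53.9 and 59.2 CPM with LIF and at 75.5, 92.0 and 77.8 CPM without (-0.54 ± 0.07, adjusted p = 2.11e-07). Serum library 2 was the highest of the 6, and without it the log2 fold change was -0.45 (adjusted p = 1.75e-05).

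Acta2, smooth muscle actin, stood at 12.3, 15.7 and 11.4 CPM against 22.6, 21.01 and 26.4 CPM (-0.84 ± 0.14, adjusted p = 8.84e-05). Thbs1, the matricellular glycoprotein thrombospondin 1, stood at 45.0, 51.7 and 56.7 CPM against 73.4, 69.8 and 67.6 CPM (-0.46 ± 0.08, adjusted p = 0.000146). Tpm1, a tropomyosin (-0.30 ± 0.05), and Vcl, vinculin (-0.25 ± 0.05), fell as well. These 5 kept the call without serum library 2. The other 5, Tagln, Flnc, Cnn1, Cnn2 and Ccn2, did not, so that 5 of 20 were called there, at a median of -0.29. The number was 5 without serum + LIF library 2 and 6 without serum + LIF library 1 or serum library 1. The cytoplasmic actins Actb (-0.09) and Actg1 (-0.16) did not pass.

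**Figure D3:**
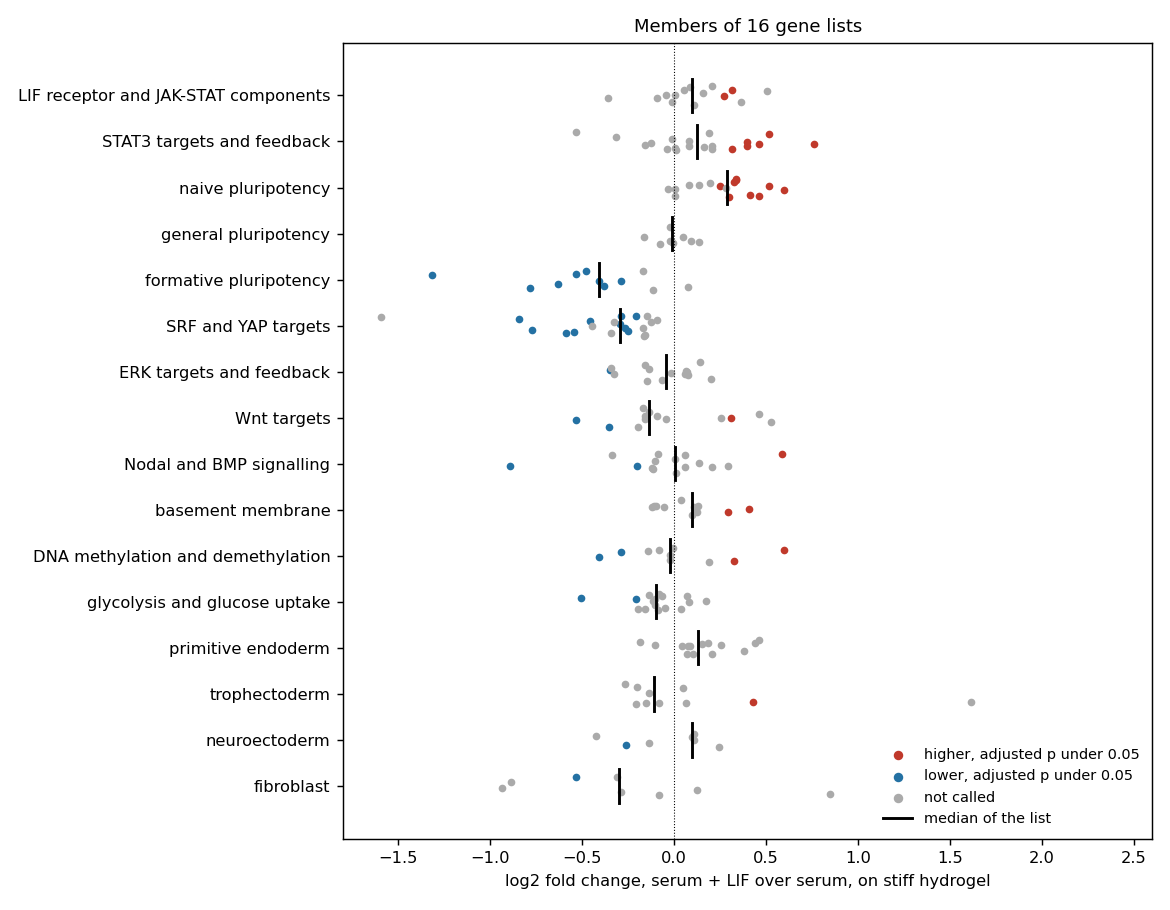
Log2 fold change of serum + LIF over serum on stiff hydrogel (horizontal axis) for each member of 16 gene lists (rows), red and blue where the adjusted p was below 0.05 and grey where it was not, with the list median as a black bar. The naive list has a median of 0.29, the formative list -0.41 and the SRF and YAP list -0.29.

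The largest changes among genes at 5 CPM or more reached beyond these lists. Khdc3, a maternal-effect gene, stood at 17.9, 14.3 and 15.7 CPM with LIF and at 8.11, 9.43 and 9.21 CPM without (0.85 ± 0.12, adjusted p = 1.14e-05). Nkx6-2, a homeodomain factor, gave 7.68, 8.90 and 8.29 CPM against 5.05, 4.58 and 3.99 CPM (0.85 ± 0.16), and Xaf1, an apoptosis-related gene, 7.11, 7.16 and 6.45 CPM against 3.96, 3.61 and 4.06 CPM (0.82 ± 0.15). Inhbb, the activin B subunit, rose by 0.59 ± 0.10, and the connexin gene Gjb5 by 0.66 ± 0.16. The cholesterol exporter Abca1 (0.55 ± 0.08), Mitf (0.57 ± 0.11) and Tgfb2 (-0.64 ± 0.14) belong to the same set of largest changes. The call of Gjb5 was lost without serum + LIF library 2 or serum library 1, and that of Tgfb2 without serum + LIF library 3.

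Of the genes that fell, Vrtn stood at 5.05, 6.12 and 6.55 CPM with LIF and at 12.6, 12.1 and 10.02 CPM without (-0.97 ± 0.18, adjusted p = 0.000814). Enpp2, the secreted lysophospholipase autotaxin, gave 6.47, 7.30 and 6.60 CPM against 12.8, 14.4 and 11.5 CPM (-0.93 ± 0.20). Sema6a, a transmembrane semaphorin, gave 34.8, 32.1 and 38.1 CPM against 60.5, 55.2 and 58.3 CPM (-0.73 ± 0.10, adjusted p = 1.53e-06). Pim2, a serine/threonine kinase gene that in other cells is induced by cytokines, fell with LIF, from 125, 129 and 114 CPM to 76.3, 79.6 and 78.7 CPM (-0.65 ± 0.07, adjusted p = 1.90e-09). It gave the third smallest p-value of all genes tested and kept its call whichever library was left out.

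Among the smallest p-values in each direction were also Jam2 and Cgn. Jam2, a junctional adhesion molecule, stood at 167, 166 and 150 CPM with LIF and at 117, 117 and 121 CPM without (0.45 ± 0.05, adjusted p = 3.23e-09). Cgn, the tight-junction protein cingulin, fell from 73.7, 71.6 and 79.5 CPM to 52.7, 51.3 and 57.5 CPM (-0.47 ± 0.06, adjusted p = 1.62e-06). Lama1 (0.40 ± 0.06) and Nid1 (0.29 ± 0.05), which encode laminin and nidogen chains of the basement membrane, rose; the other 9 members of that list did not pass. Both calls held without serum library 2.

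The study listed genes of the pre- and post-implantation epiblast; whether it trimmed those lists on these libraries is not stated, so they are not independent evidence. Over all genes tested, 0.695% fell and 0.712% rose. Of 197 post-implantation genes tested, 28 fell and none rose, at a median of -0.15. The 28 include Pou3f1, Otx2, Dnmt3b and Pim2, which are described above. Of 137 pre-implantation genes, 18 rose and 2 fell, at a median of 0.09; the 2 that fell were the metallothionein genes Mt1 (-0.43 ± 0.06) and Mt2 (-0.32 ± 0.07, lost without serum + LIF library 1 or serum library 2), which bind zinc and copper. Without serum library 2 the numbers were 16 lower in the first list, and 8 higher and 1 lower in the second.

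Few markers of other cell types passed. None of 14 primitive endoderm genes was called. Of the 14, 12 had a log2 fold change above 0, at a median of 0.13, and 8 did without serum library 1. Their summed level was 489 to 533 CPM with LIF and 516 to 540 CPM without. Of this, Sparc, a matrix glycoprotein that other cells also make, gave 216 to 226 and 194 to 228 CPM, while Gata6 stood at 7.50 and 6.76 CPM on average. None of 10 genes of the primitive streak and mesoderm was called, at a summed 39.0 to 40.7 CPM with LIF and 38.5 to 44.7 CPM without. In the trophectoderm list, which summed to 187 to 218 CPM with LIF and 201 to 220 CPM without, Tfap2c alone rose (42.3, 39.2 and 42.8 CPM against 29.6, 34.3 and 29.1 CPM, 0.43 ± 0.07), while Cdx2 stood at 3.04 and 3.58 CPM. In the neuroectoderm list, which summed to 166 to 169 CPM and 167 to 175 CPM, Sox11 fell (-0.26 ± 0.07, lost without serum + LIF library 1 or 2 or serum library 1 or 3) and Sox1 stood at 11.8 and 11.2 CPM. Among 8 fibroblast genes Col1a1 fell from 30.2, 29.7 and 35.5 CPM to 18.9, 21.7 and 24.5 CPM (-0.54 ± 0.14, adjusted p = 0.0294, lost without serum + LIF library 1 or 2 or serum library 3); Dcn and Col3a1 were at or below 1.39 CPM on average in both groups. The summed level of the fibroblast list was 40.5 to 47.9 CPM with LIF and 55.8 to 61.7 CPM without. Its part in the fall of the SRF and YAP genes was not tested.

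The same addition of LIF was made on soft hydrogel, in 3 libraries of serum + LIF and 3 of serum that are independent of the 6 above and of the third pool. There, 3 genes passed (0.0169% of those tested), with 1345 at an unadjusted p below 0.05 and 36 called by DESeq2, and 0 passed without soft serum + LIF library 1 or 2 or soft serum library 1 or 3, against 16 without soft serum + LIF library 3. On stiff hydrogel 2032 had an unadjusted p below 0.05. Socs3 and Lama1 rose in both, by 0.40 ± 0.07 and 0.31 ± 0.06 on soft, and Vim rose on soft with 0.01 on stiff. Of the 126 genes that rose on stiff, 111 (88.1%) also had a log2 fold change above 0 on soft, at a median of 0.10 against 0.36 on stiff. Of the 123 that fell, 77 (62.6%) were below 0 on soft, at a median of -0.04. Over all genes tested, 49.6% were above 0 on soft. The genes were chosen for their change on stiff, which enlarges the stiff values, so these medians are not a test of a difference.

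With PD03 in both media, also on stiff hydrogel, LIF changed 91 genes (0.514%). The count was 24 to 82 when single libraries were left out, lowest without serum + LIF + PD03 library 1 and at most 42 without any single library other than serum + PD03 library 1. It was 154 in DESeq2 and 417 from the 6 libraries alone. Of the 126 genes that rose without PD03, 76 (60.3%) were above 0 with it, at a median of 0.03, and of the 123 that fell, 53 (43.1%) were below 0, at a median of 0.03. Over all genes tested, 50.8% were above 0 and 49.2% below 0 with PD03. Socs3 rose there too (0.34 ± 0.07, adjusted p = 0.0115). The naive list had a median of -0.01 and the SRF and YAP list of 0.14 with PD03, where 2 of the 20 rose, and of 0.09 and -0.02 on soft hydrogel, where none of either list passed.

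**Figure D4:**
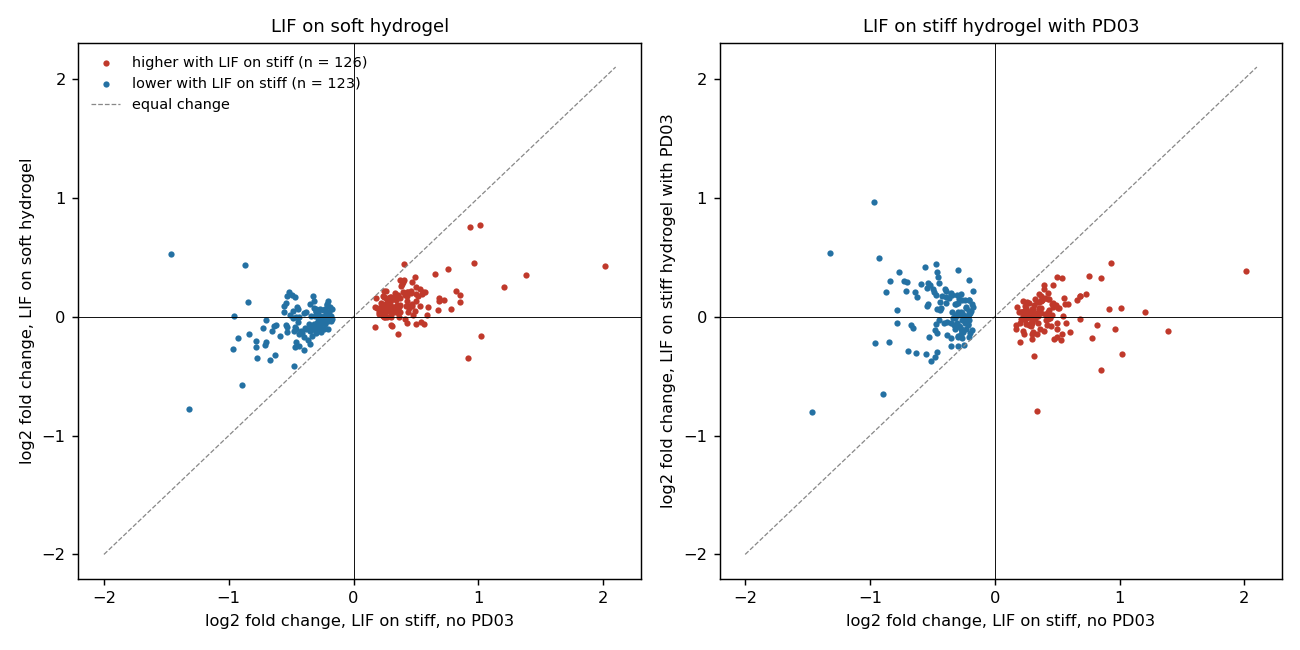
Log2 fold changes of the 249 genes changed by LIF on stiff hydrogel (horizontal axis) against their log2 fold changes for LIF on soft hydrogel (left) and on stiff hydrogel with PD03 (right); the dashed line marks equal change. Of the genes that rose on stiff (red), 111 of 126 lie above 0 on the left and 76 of 126 on the right.

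The difference between the LIF effects was tested gene by gene. Between stiff and soft it passed for 15 genes (0.0847%), 4 of them among those that rose on stiff and 10 among those that fell, and 11 of the 15 had the lower value on stiff. Since this interaction includes the same stiff libraries that chose the genes, that overlap is not independent of the choice. The count of 15 was unsteady, at 0 to 124 when single libraries were left out, 1 without serum library 2 on stiff, and 98 in DESeq2, so that none of the 15 was called in all of these fits. Jam2, with 0.45 on stiff and 0.07 on soft, differed by 0.38 ± 0.06 (adjusted p = 0.00612). It stood at 178, 173 and 161 CPM in serum and at 174, 181 and 182 CPM in serum + LIF on soft. All 6 of these values lay above the 3 serum libraries on stiff.

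Pim2 differed by -0.53 ± 0.09 (adjusted p = 0.00612): on soft it was at 90.9, 79.7 and 98.3 CPM without LIF and at 89.7, 80.2 and 77.0 CPM with it. Zyx differed by -0.47 ± 0.09 (adjusted p = 0.0365) and stood on soft at 49.97, 49.6 and 50.6 CPM without LIF and 49.0, 51.2 and 42.6 CPM with it. Tns1, which encodes the adhesion protein tensin 1, differed by 0.50 ± 0.10 (adjusted p = 0.0375), with 0.35 on stiff and -0.14 on soft. Rpl29, a ribosomal protein gene with near-identical copies in the genome, differed by -0.50 ± 0.10 (adjusted p = 0.0365), and its counts are uncertain for that reason. Tfcp2l1 (0.34 ± 0.07) and Pou3f1 (-0.58 ± 0.12), both with an adjusted p of 0.0375, were also among the 15. For these 2 the serum libraries on soft were already close to the serum + LIF libraries on stiff, with Tfcp2l1 at 196 to 206 CPM and Pou3f1 at 44.7 to 52.0 CPM.

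Between stiff without and with PD03 the LIF effect differed in 193 genes (1.09%), of which 47 were among the genes that rose on stiff and 52 among those that fell; since the interaction includes the same 6 libraries, that share is not independent of the choice. The count was 128 without serum library 2 and 92 to 187 over all omissions of 1 library, lowest without serum + LIF library 1. Jam2 again gave the smallest p-value (0.53 ± 0.06, adjusted p = 1.71e-06), with 404 to 430 CPM in serum + PD03 and 389 to 395 CPM once LIF was added. Thbs1 differed by -0.79 ± 0.11 (adjusted p = 6.49e-06): it fell with LIF alone and rose with LIF in PD03, from 72.2, 72.7 and 69.6 CPM to 91.3, 92.0 and 87.3 CPM (0.33 ± 0.07). Cgn (-0.66 ± 0.09) and Esrrb (0.48 ± 0.06), both with an adjusted p of 6.49e-06, had log2 fold changes for LIF of 0.19 ± 0.06 and -0.14 ± 0.05 in PD03, neither of which passed (adjusted p = 0.259 and 0.198). Peg10, an imprinted gene derived from a retrotransposon, differed by -0.67 ± 0.09; it stood at 2339, 2575 and 2809 CPM with LIF alone, below the 3 serum libraries, but missed the threshold on stiff without PD03 (-0.23 ± 0.06, adjusted p = 0.0567), which it passed in 4 of 13 alternative fits.

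**Figure D5:**
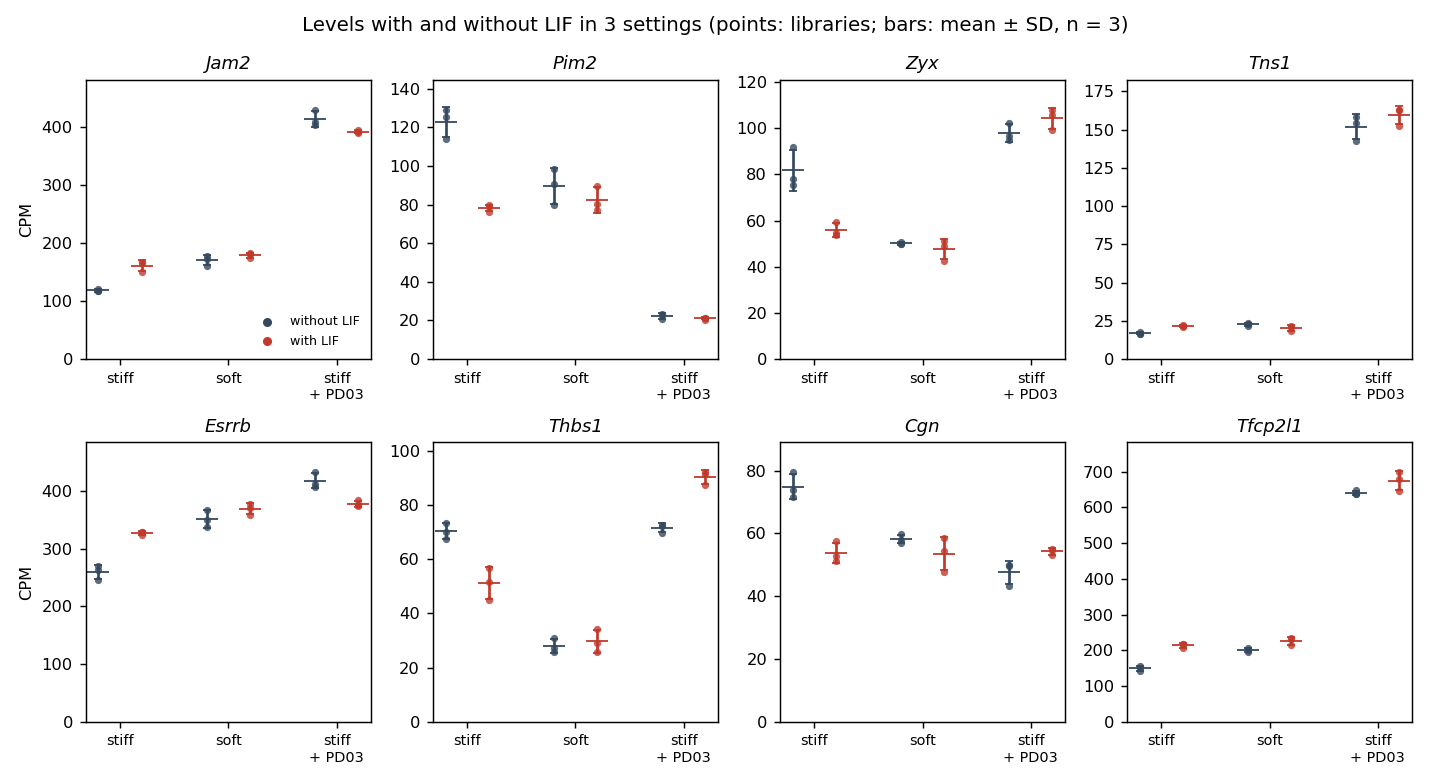
CPM of 8 genes without LIF (dark) and with LIF (red) on stiff hydrogel, on soft hydrogel and on stiff hydrogel with PD03; points are libraries and bars the mean ± SD of 3. Jam2 and Tfcp2l1 rise and Pim2, Zyx and Cgn fall with LIF on stiff without PD03.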

How the data were processed

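Bulk mESC RNA was sequenced (NuGen kit per the labels). The authors aligned reads to mm10 (GRCm38) with STAR 2.5.2a and counted them per Ensembl gene with htseq-count; the deposited values are raw counts, and strand and multi-mapping settings are not given in the sources used here. Symbols matched 49326 of 49671 gene identifiers. All 36 libraries (11 groups) were fitted together in edgeR 4.0.16 (R 4.3.3; filterByExpr, TMM, quasi-likelihood test, 1 coefficient per group, Benjamini-Hochberg adjustment over 17702 genes). SE is the log2 fold change divided by the square root of F, and CPM uses TMM-scaled library sizes. Simulated data recovered 93% of 1.5-fold and 98% of 2-fold changes, with 7.73% of calls false. The simulation had no outlying library and no pool effect, and changed only genes above 5 CPM. Of the real calls, 20 of 126 that rose and 22 of 123 that fell passed 1.5-fold. The simulated rates therefore do not carry over to the real calls. Named genes are the 15 largest changes per direction at 5 CPM or more, the 10 smallest p-values per direction, members of core lists, called members of the other lists and the 5 smallest p-values per interaction. Jak3 was added as a called JAK kinase gene outside the lists, and Dusp1 as a called Dusp gene outside the ERK list. Members and the 23 lists were chosen with earlier results of these data known. Alternatives were RLE scaling, no filter, DESeq2 1.42.0, only the groups compared, leaving out each library, and a pool term, fitted without the soft serum + PD03 libraries. Some genes that the rule names are not reported here.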

Additional observations from a re-analysis of the deposited data

Results flagged for a closer look

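The LIF effect differed between stiff and soft hydrogel in 15 genes and between stiff hydrogel without and with PD03 in 193 genes, both by the interaction term of the edgeR fit. The 5 smallest p-values of the first belonged to Jam2 (difference 0.38 on the log2 scale), Pim2 (-0.53), Rpl29 (-0.50), Zyx (-0.47) and Tns1 (0.50). Those of the second belonged to Jam2 (0.53), Thbs1 (-0.79), Peg10 (-0.67), Cgn (-0.66) and Esrrb (0.48). The soft libraries carry the third pool identifier and the stiff libraries the first or second.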

How the results depend on the processing

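No paired analysis was possible because the columns of the count table carry group names without replicate numbers. Genes changed by LIF on stiff numbered 381 without a filter on low counts, 386 in DESeq2, and 119 and 136 with a pool term (serum + LIF library 1 or 2 in the first pool); leaving out single libraries gave 118 to 231. List members called on stiff were 87, with 51 and 55 under those pool terms and 51 to 77 without single libraries. Genes changed by LIF on soft numbered 46 without a filter, 36 in DESeq2 and 0 to 16 without single libraries; with PD03, 141 without a filter, 154 in DESeq2, 417 from the 6 libraries alone and 24 to 82 without single libraries. The substrate interaction gave 173 genes without a filter, 98 in DESeq2, 1 from its own libraries, 0 and 1 under those pool terms, 21 with serum + LIF library 3 in the first pool, and 0 to 124 without single libraries; the PD03 interaction gave 290 in DESeq2, 98 with the pool term for library 1 and 92 to 187 without single libraries. Some of these fits hold fewer libraries and others hold all of them, and the cause of the changes in count was not tested. Of 112 called genes that were named, all kept their sign and 47 kept the call in all 13 alternatives. Depth limits genes near 1 CPM, such as Osmr (0.50 ± 0.45).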

Other observations

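Other gene groups moved little with LIF on stiff hydrogel. Of 16 genes of glycolysis and glucose uptake, 2 fell, the lactate exporter Slc16a3 (-0.51 ± 0.08) and Gapdh (-0.21 ± 0.05), with a list median of -0.10; Gapdh was lost without serum library 2 (adjusted p = 0.208) and has near-identical copies in the genome. None of 16 cholesterol synthesis genes (median -0.01) and none of 14 amino acid stress genes (median 0.01) passed. Of 14 ERK targets, Dusp4 alone fell (-0.35 ± 0.10), and its call was lost in 8 of 13 alternative fits, among them that without serum library 2 (adjusted p = 0.198). In the Nodal and BMP list of 15, Inhbb rose and 2 genes fell, 1 of them Skil (-0.20 ± 0.05). The lowest log2 fold change in that list was -0.89, and no member was called lower without serum library 2. In the Wnt list of 13, Notum rose (0.31 ± 0.08) while Lef1 and Axin2 (-0.35 ± 0.08) fell. Without serum library 2 the calls of Skil (adjusted p = 0.114), Notum (0.218) and Axin2 (0.126) were lost; that of Notum was lost in 9 of 13 alternative fits. None of 13 mitochondrially encoded genes passed; their median was 0.21, and -0.06 without serum library 2.

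All 9 tested members of the 2-cell-like and maternal list had a log2 fold change above 0, beside 50.6% of all genes tested. Without serum + LIF library 3, 8 of the 9 did. The members were chosen with earlier results of these data known, so this shared sign is not independent evidence. The list median was 0.60 (0.46 without serum library 2), but Khdc3 alone passed. Zscan4c, Zscan4d and Zscan4f, at 0.73, 0.60 and 0.62, are near-identical copies, so their counts are uncertain and their signs are not separate observations. On soft hydrogel the list median was -0.25.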
